A study of Mus musculus with 4 samples.

Results

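Choroid plexus epithelial nuclei were picked out of single-nucleus RNA-seq data from mouse cortex and hippocampus by their own RNA. A nucleus counted as choroid plexus when at least 3 of 6 genes (*Otx2*, *Otx2os1*, *Tmem72*, *Slc4a5*, *Lmx1a* and *Rbm47*) each had a unique molecular identifier (UMI, the tag by which single RNA molecules are counted). It was also required to hold no more than 1 UMI of the neuron genes *Slc17a7*, *Gad1* and *Gad2* together. In the 2 libraries labelled *Sel1L fl/fl*, 9 of 12362 and 2 of 8436 nuclei met this rule, and in the 2 libraries labelled *Sel1L SynCre*, 47 of 8065 and 13 of 7231 did. The total was 71 of 36094 nuclei, or 0.197%, all with more than 600 genes and under 5% mitochondrial UMIs. *Ttr*, the best known transcript of this tissue, was kept out of the rule because its UMIs were found in all kinds of nuclei.

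The 4 libraries each came from 1 mouse of 5 weeks on the C57BL/6J background, and all 4 mice carried the floxed Sel1L allele. Mice labelled *Sel1L SynCre* also carried *Cre* under the Synapsin I promoter, a driver of neurons that is not directed at choroid plexus epithelium. Frozen tissue was broken up, and nuclei stained with propidium iodide were sorted and loaded for 3′ droplet sequencing, so the counts are of nuclear RNA. Values below are given in the order fl/fl replicate 1, fl/fl replicate 2, SynCre replicate 1, SynCre replicate 2. The depth per library was 122870443, 76617523, 75227337 and 74082610 UMIs, and the 71 choroid plexus nuclei held 52262, 10127, 240985 and 105769 of them.

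The labels were checked first. In neuron nuclei, *Cre* stood at 4.51, 0, 3.91 and 4.42 UMIs per 1000000 UMIs (CPM), so the library labelled *Sel1L fl/fl* replicate 1 held *Cre* RNA at the level of both libraries labelled SynCre. *Sel1l* itself stood at 95.4, 89.0, 154 and 131 CPM in neuron nuclei and was not lower under the SynCre label; the reads counted need not lie in the deleted part of the gene, so its count does not test the deletion. *Derl3* and *Herpud1*, genes of ER-associated degradation, did follow the labels in neuron nuclei. *Derl3* stood at 0.571, 0.467, 16.6 and 10.2 CPM there (log2 fold change 4.61, SE 0.31, edgeR adjusted p = 0.0105) and *Herpud1* at 16.9, 19.4, 50.6 and 42.2 (log2 fold change 1.31, SE 0.12, edgeR adjusted p = 0.0191), in a fit that called 0.143% of 19618 genes. Because the *Cre* RNA in 1 library goes against its label, groups are named by their labels throughout. Within choroid plexus nuclei, *Cre* had 0 UMIs in all 4 libraries, which allows up to 57.4, 296, 12.4 and 28.4 CPM (3 UMIs of each total), above the level in neuron nuclei. The Y-linked *Ddx3y* had 8, 0, 27 and 0 UMIs there and *Xist*, the RNA of the silenced X chromosome, had 0, 23, 4 and 211, so sex followed the replicate number and not the label.

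The choroid plexus is a folded sheet of epithelium over a vascular stroma inside the brain ventricles. Its epithelial cells secrete cerebrospinal fluid by moving sodium, chloride, bicarbonate and water from blood to ventricle, and their tight junctions form the barrier between blood and that fluid. They also secrete carrier proteins, above all transthyretin (*Ttr*), which binds thyroid hormone and the retinol-binding protein. Among the genes of the rule, *Otx2* and *Lmx1a* are homeodomain transcription factors of the dorsal midline and choroid lineage, *Slc4a5* is a sodium bicarbonate cotransporter, *Tmem72* is a membrane protein, *Rbm47* binds RNA and *Otx2os1* is a non-coding transcript on the other strand at the *Otx2* locus.

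The share of choroid plexus nuclei differed widely among libraries. It was 0.0728% (exact 95% binomial interval 0.0333 to 0.138), 0.0237% (0.00287 to 0.0856), 0.583% (0.428 to 0.774) and 0.180% (0.0958 to 0.307). These intervals cover counting error only. Both SynCre-labelled libraries lay above both fl/fl-labelled libraries, and the mean share was 0.381% ± 0.285 (SD, n = 2) against 0.0483% ± 0.0347 (SD, n = 2). The difference of 0.33 percentage points gave p = 0.3333 in a two-sided exact permutation test, the smallest value that 2 against 2 libraries allow. SynCre replicate 1 alone supplied 66.2% of all choroid plexus nuclei, and without it the difference was 0.132 percentage points. The intervals of fl/fl replicate 1 and SynCre replicate 2 overlapped. Between the libraries with *Ddx3y* RNA the share was 8.00 times as high under the SynCre label, and between those with *Xist* 7.58 times. The choroid plexus lies in the ventricles and not in the dissected cortex and hippocampus, so how much of it came along with the tissue cannot be told apart from the label with these mice.

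**Figure D1:**
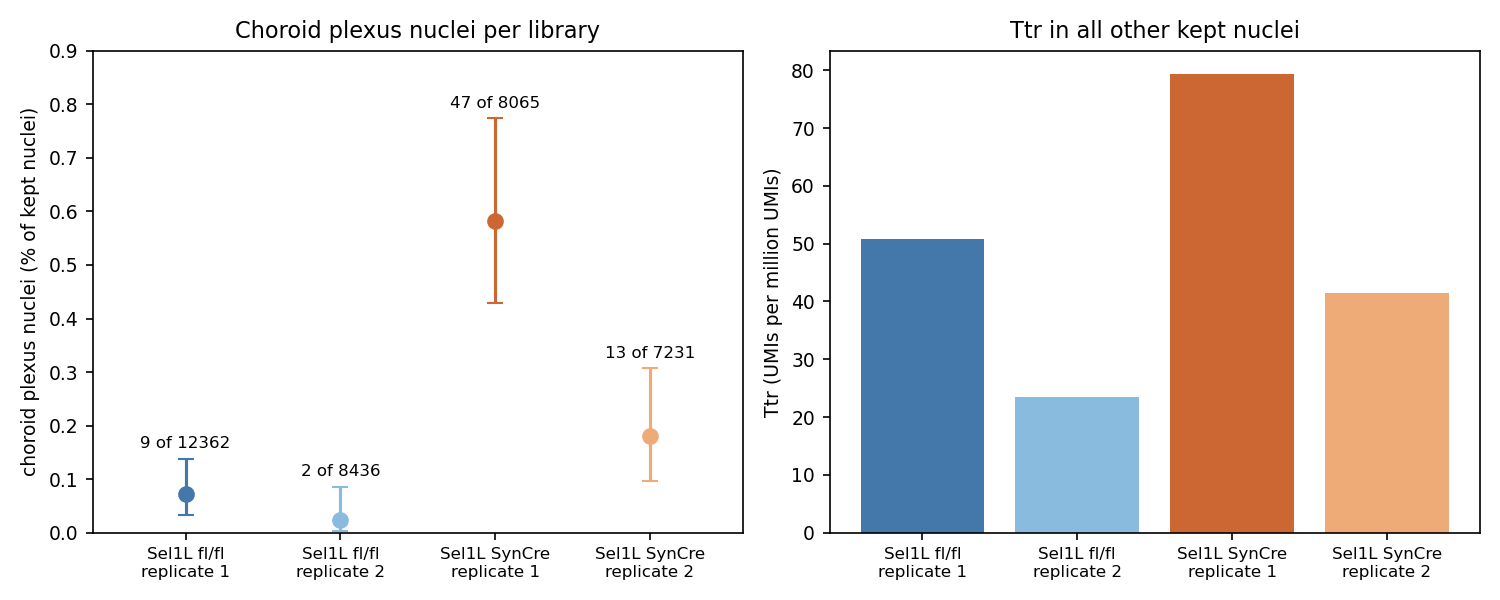
Left, choroid plexus nuclei as a percentage of kept nuclei in each library, with exact 95% binomial intervals; right, *Ttr* (CPM) in all other kept nuclei of the same library. SynCre replicate 1 is the highest library in both panels (0.583% and 79.4) and fl/fl replicate 2 the lowest (0.0237% and 23.5).

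*Ttr* outside the choroid plexus nuclei was likewise highest in SynCre replicate 1 and lowest in fl/fl replicate 2. In droplet data, RNA freed from broken cells is counted in nuclei that do not make it, and all other kept nuclei held 50.8, 23.5, 79.4 and 41.5 CPM of *Ttr*. Here fl/fl replicate 1 was above SynCre replicate 2, so the groups overlapped (exact permutation p = 0.667). Between libraries of the same sex, *Ttr* in other nuclei was 1.56 and 1.77 times as high under the SynCre label, and for *Ttr* in neuron nuclei the edgeR adjusted p was 0.554 without and 0.0236 with the replicate number as a block. A *Ttr* UMI was found in 30.6%, 14.4%, 45.2% and 27.0% of neuron nuclei (median depth 13425, 12410, 12651 and 12968 UMIs) and in 28.6%, 13.5%, 44.5% and 25.5% of microglia or macrophage nuclei (median depth 1963, 1824, 1972 and 2015 UMIs). The 2 classes had like shares in each library at very different depths. Other classes could differ. In SynCre replicate 2, astrocyte nuclei held a mean of 1.10 *Ttr* UMIs each, against 0.335 in microglia or macrophage and 0.339 in oligodendrocyte nuclei. Whether *Ttr* in other nuclei was freed RNA was not tested. Barcodes with 600 genes or fewer, which were not kept, held 683, 425, 1497 and 684 CPM of *Ttr*. The share of choroid plexus nuclei spanned 24.6-fold from the lowest to the highest library, while *Ttr* in other nuclei spanned 3.39-fold.

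Summed over nuclei, *Ttr* was far higher in the choroid plexus nuclei than in the other kept nuclei. In choroid plexus nuclei it stood at 9625, 12738, 20159 and 12064 CPM, and 67 of 71 of these nuclei had at least 1 *Ttr* UMI. Counted per nucleus, *Ttr* ran from 0 to 181 UMIs (median 50) in fl/fl replicate 1, from 48 to 81 (median 64.5) in fl/fl replicate 2, from 0 to 517 (median 79) in SynCre replicate 1 and from 0 to 342 (median 67) in SynCre replicate 2. The range within SynCre replicate 1 alone enclosed the ranges of the other libraries. Neuron nuclei of the same libraries had a mean of 0.544, 0.203, 0.719 and 0.448 *Ttr* UMIs each.

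**Figure D2:**
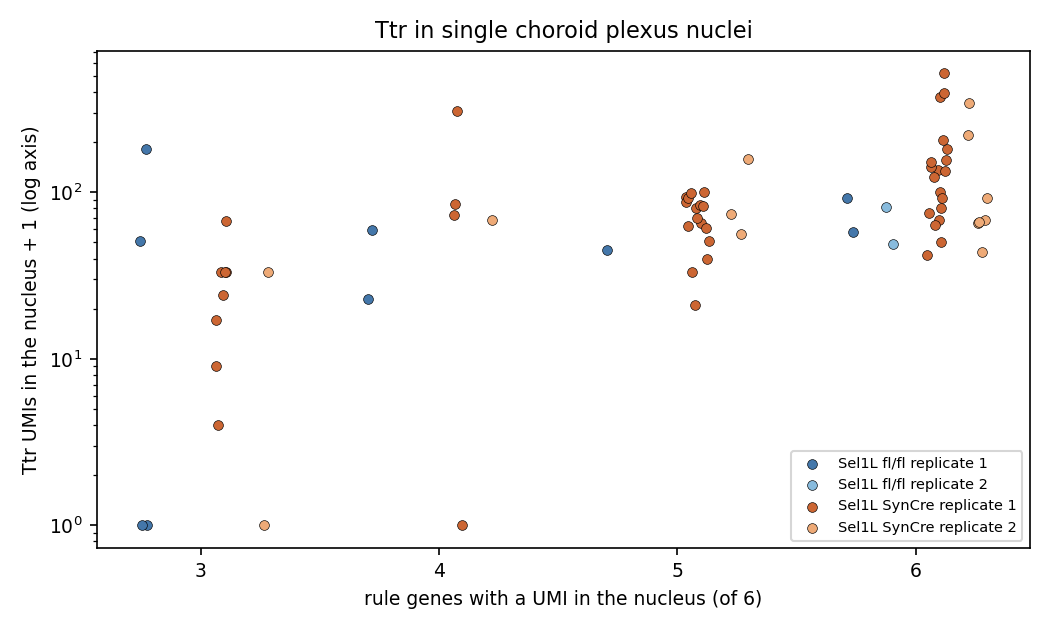
*Ttr* UMIs plus 1 (log axis) in each of the 71 choroid plexus nuclei against the number of the 6 rule genes with a UMI, coloured by library; points are spread sideways within each number. All 50 nuclei with 5 or 6 rule genes have at least 20 *Ttr* UMIs, and the 4 nuclei without *Ttr* have 3 or 4 rule genes.

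The 6 genes of the rule were detected to unequal extents. *Otx2os1* had a UMI in 70 of the 71 nuclei, *Rbm47* in 64, *Tmem72* in 58, *Otx2* in 56, and *Slc4a5* and *Lmx1a* in 51 each. All 6 were seen in 30 nuclei, 5 in 20, 4 in 7 and 3 in 14, and the median depth of these 4 sets was 6388, 3953, 6148 and 2766 UMIs. Nuclei with more rule genes also had more *Ttr*, which the rule did not use, with a median of 91, 71, 67 and 27.5 UMIs in the same order. At the edge of the rule, 4, 0, 8 and 2 nuclei stood just inside with 3 genes. Just outside, with 2 genes, stood 10, 2, 16 and 5 nuclei, of which 2, 1, 1 and 0 had 10 or more *Ttr* UMIs; among the 14 nuclei just inside, 9 did. Because *Otx2* and *Otx2os1* overlap on opposite strands, the rule was repeated with both counted as 1 gene, and 65 nuclei remained (6, 2, 45 and 12).

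Markers outside the rule went with the choroid plexus label. All 20 genes on a list of further choroid plexus markers were detected, and all 20 had a CPM more than 10 times that in the other kept nuclei. Of the 4772 genes with at least 20 UMIs in these nuclei, 8.03% passed that ratio and 35.1% were more than 2 times as high as in the other nuclei; since the nuclei were chosen on their own expression, these ratios are a description without a test. *Folr1*, the folate receptor that loads folate into cerebrospinal fluid, had 5, 3, 89 and 31 UMIs, or 313 CPM against 0.371 in other nuclei. *Clic6*, a chloride channel protein, had 15, 5, 128 and 40 UMIs (459 against 1.17 CPM), and *Kl*, the anti-ageing membrane protein Klotho, had 10, 7, 91 and 66 (425 against 3.08 CPM). Each of these was found in all 4 libraries. *Aqp1*, the water channel of the apical membrane, was rare in nuclear RNA, with 0, 1, 4 and 5 UMIs, and *Mfrp* had 3 UMIs in all.

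**Figure D3:**
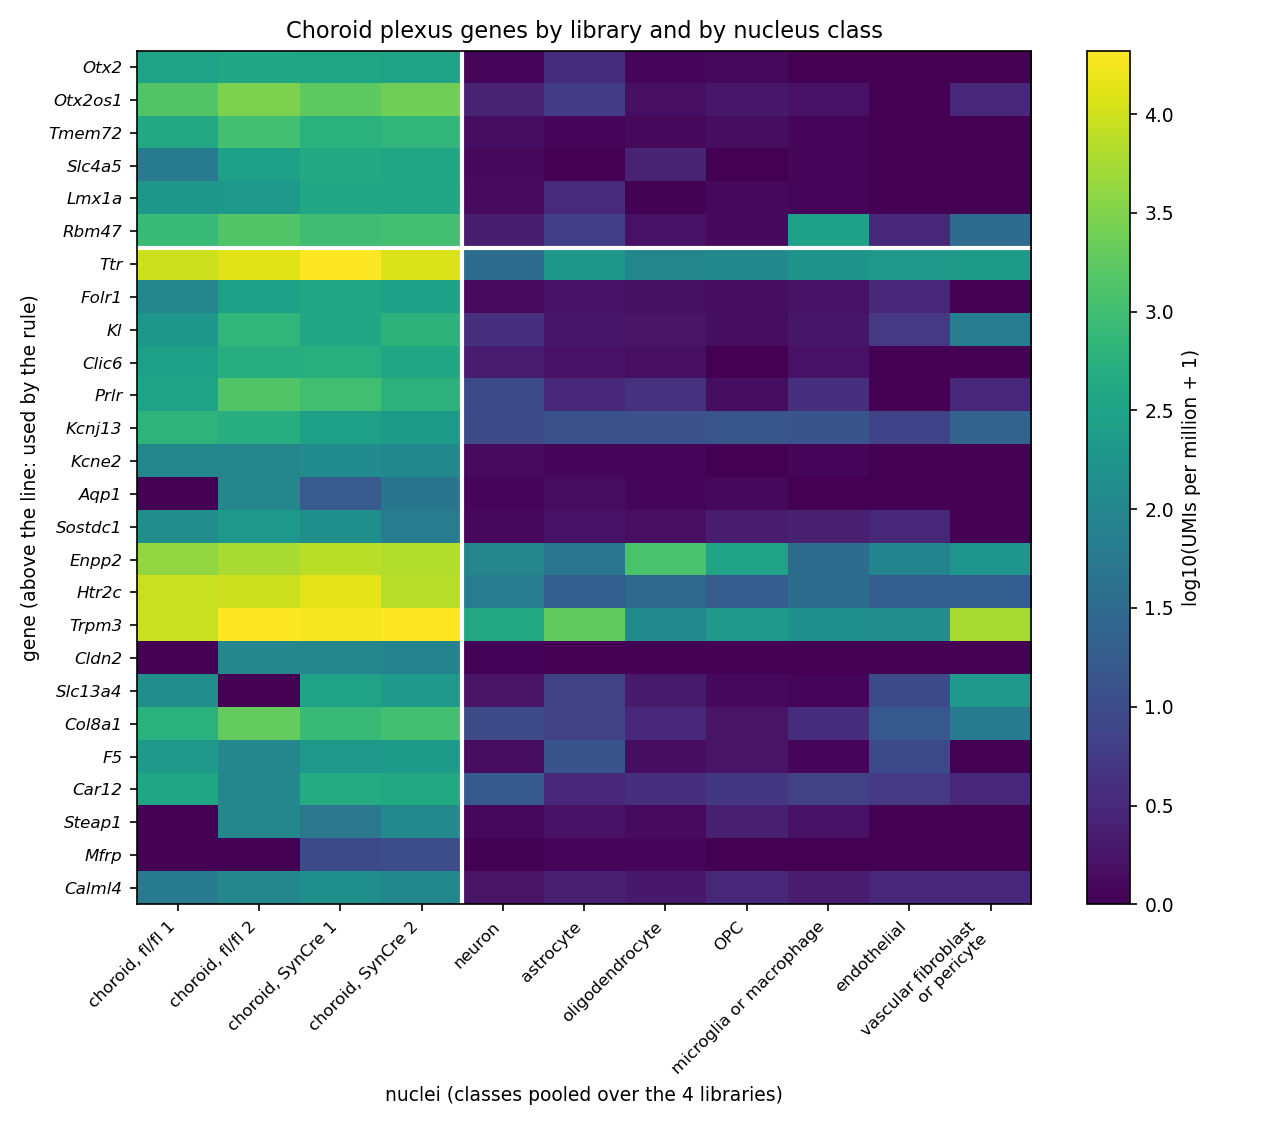
Level, as log10 of CPM plus 1, of the 6 rule genes (above the white line) and 20 other choroid plexus markers in the choroid plexus nuclei of each library (left of the white line) and in 7 other classes of nuclei pooled over libraries. *Folr1* stands at 95.7, 296, 369 and 293 CPM in the 4 choroid plexus columns and at 0.33 in neuron nuclei; *Trpm3* is also high in vascular fibroblast or pericyte nuclei and *Enpp2* in oligodendrocyte nuclei.

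A further group of genes was named by its ratio to the other nuclei, among genes outside the rule found in at least 25% of the choroid plexus nuclei of both SynCre-labelled libraries. The 20 leading genes included *Defb9*, a beta-defensin, *Cdh3*, a cadherin, *Slc16a8*, a lactate transporter, *Krt18*, an epithelial keratin, *Col4a3*, a collagen of basement membranes, and *Drc7*, part of a ciliary dynein regulator. *Defb9* had 11, 1, 51 and 8 UMIs, *Krt18* had 0, 1, 18 and 6, and *Col4a3* had 9, 3, 64 and 33. *Gmnc*, the regulator of multiciliated cell fate, had 63, 17, 395 and 97 UMIs in 61 nuclei, or 1398 CPM against 2.14 CPM in other nuclei. Of the 20 leading genes, 6 overlap another annotated gene on the opposite strand, and how the counting treated strand is not given in the sources used here.

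Several of these genes lay side by side at the *Otx2* locus on chromosome 14 (GRCm38, GENCODE vM21). *Otx2* (chr14:48657677-48673819, minus strand) had 135 UMIs over the 71 nuclei, and *Otx2os1* (chr14:48668708-48870683, plus strand), a long non-coding RNA that starts within it, had 787. *Gm49156* (chr14:48727414-48740809, minus strand) lies inside *Otx2os1* and had 30 UMIs. *Gm534* (chr14:48870258-48881869, minus strand) had 3, 0, 82 and 38 UMIs and overlaps the end of *Otx2os1*, and *4933429O19Rik* (chr14:48878586-48887112, plus strand) had 10, 8, 49 and 18 and overlaps *Gm534*. All 5 genes had under 2 CPM in other nuclei. Each overlap among them is between opposite strands. Whether the counting kept the reads of overlapping genes apart is not given in the sources used here.

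The DNA motif TAATCC, the core that *Otx2* and related homeodomain proteins bind, was looked for on both strands in 300 bases around the RefSeq start site (250 before to 50 after) of the choroid plexus genes. It was present in 3 of the 30 genes with an entry, of 41 looked up, or 10% against 8.14% of 27025 genes. The sequences below are shown because 2 of these 3 genes, *Otx2* and *Rbm47*, belong to the rule; capitals mark the motif, which reads GGATTA on the printed strand, and each stretch is 30 bases of RefSeq sequence on GRCm38.p6, written 5′ to 3′ on the strand of the gene. The first base of the motif lies 211, 220 and 134 bases before the start site of *Otx2* (chr14:48665303-48665332), *Rbm47* (chr5:66152157-66152186) and *Mfrp* (chr9:44101624-44101653), and the stretches at *Otx2* and *Rbm47* fall within the longer genes annotated by GENCODE.
Otx2: cgtgtgcccctcGGATTAtctcgttagttt
Rbm47: cggggggggggcGGATTAtacataataata
Mfrp: ctcagctgagttGGATTAaggaccattccg
A match gives the letters only, and the share with a match was close to that of all genes.

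Genes of fluid secretion made up the next group. Of 30 genes for ion and water transport, 23 had at least 20 UMIs. Of these, 11 were more than 10 times as high as in other nuclei, beside 8.03% of the 4772 genes. The median ratio was 5.93 against 1.53 over the 4772 genes. The gene lists share members, so their counts are not independent. Among these 11, *Trpm3*, *Clic6*, *Car12*, *Kcnj13* and *Kcne2* are also on the list of further choroid plexus markers. So are *Folr1*, *Slc13a4* and *Steap1* of the carriers below, *Ttr*, *Enpp2*, *Kl*, *Sostdc1* and *F5* of the secreted factors, and *Htr2c* and *Prlr* of the receptors. *Trpm3*, a cation channel, had 472, 207, 4336 and 2211 UMIs (41.1 times the other nuclei), and *Stk39*, the kinase SPAK that switches on chloride cotransport, had 128, 38, 592 and 322 (16.9 times). *Slc12a2*, the sodium-potassium-chloride cotransporter NKCC1, had 24, 0, 116 and 47 UMIs, or 457 CPM, close to the 498 CPM in oligodendrocyte nuclei. The potassium channel *Kcnj13* had 34, 5, 67 and 24 UMIs, the channel subunit *Kcne2* had 5, 1, 29 and 11, and *Trpv4*, a channel opened by swelling, had 5, 1, 56 and 12. The carbonic anhydrases *Car12* and *Car14* had 173 and 49 UMIs. *Atp1b1*, a beta subunit of the sodium pump, had 15, 4, 118 and 31 UMIs, 2.25 times the other nuclei.

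Of 25 genes on a list of folate, vitamin, metal and solute carriers, which also holds some receptors, 16 had at least 20 UMIs. Of these, 10 passed 10 times the other nuclei, beside 8.03% of the 4772 genes. Their median ratio was 18.3 against 1.53. *Slc16a8* had 1, 2, 33 and 10 UMIs against 0.0776 CPM in other nuclei, and *Slc28a3*, a nucleoside transporter, had 5, 1, 28 and 19 against 0.284. *Slco1c1*, which carries thyroxine, had 8, 2, 88 and 51, or 364 CPM against 964 in endothelial nuclei. *Slc23a2*, the vitamin C transporter, had 23, 5, 112 and 47 UMIs, 3.66 times the other nuclei. The folate transporters *Slc46a1* and *Slc19a1* had 1 and 14 UMIs in all, and *Slc39a8* none.

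Of 20 genes for secreted carriers and factors, 14 had at least 20 UMIs. Of these, 10 passed 10 times the other nuclei and all 14 passed 2 times, beside 8.03% and 35.1% of the 4772 genes. *Enpp2*, the enzyme autotaxin that makes lysophosphatidic acid, had 214, 61, 1798 and 694 UMIs and was found in 69 nuclei. Its level of 6763 CPM exceeded the 1196 CPM in oligodendrocyte nuclei. *Bmp6*, a bone morphogenetic protein, had 13, 2, 97 and 50 UMIs, *Igfbp2*, which binds insulin-like growth factors, had 2, 1, 44 and 18, and *F5*, coagulation factor V, had 11, 1, 49 and 24. Vascular fibroblast or pericyte nuclei held more of the first 2 of these, at 1237 CPM of *Bmp6* against 396 in choroid plexus nuclei and 226 CPM of *Igfbp2* against 159. *Sostdc1*, an inhibitor of BMP and Wnt signalling, had 7, 2, 34 and 7. *Igf2*, whose product the choroid plexus is known to secrete, had 5 UMIs in all.

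The junction genes separated this epithelium from the endothelium. *Cldn2*, the pore-forming claudin of leaky epithelia, had 0, 1, 22 and 9 UMIs against 0.0776 CPM in other nuclei, and *Cldn1* had 2, 0, 10 and 8. *Cldn5*, the claudin of the endothelial barrier, had 0 UMIs of 409143, which allows up to 7.33 CPM (3 UMIs of that total). *Ezr*, which ties microvilli to actin, had 14, 1, 59 and 48 UMIs, 77.1 times the other nuclei, while the widely expressed junction scaffold *Tjp1* stood at 0.398 times.

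**Figure D4:**
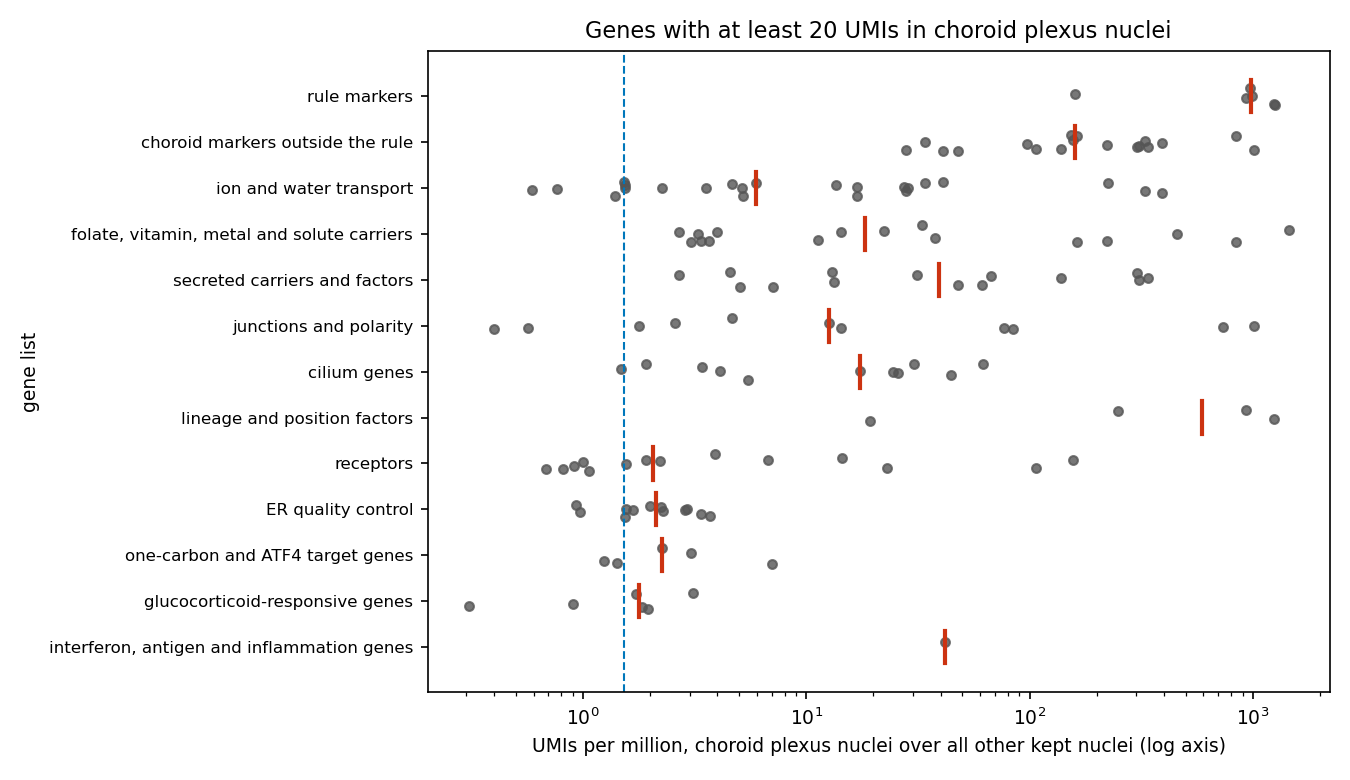
Ratio of CPM in choroid plexus nuclei over all other kept nuclei (log axis) for each gene with at least 20 UMIs, by gene list; red bars mark list medians and the dashed blue line the median of 1.53 over 4772 genes. The rule genes run from 161 to 1260 and genes of ER quality control from 0.931 to 3.69.

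All 16 cilium genes were detected, and 11 had at least 20 UMIs, with a median ratio of 17.4. The transcription factor *Rfx3* had 50, 15, 264 and 122 UMIs, *Foxj1*, the master regulator of motile cilia, 2, 1, 14 and 2, and *Tekt1* 6, 0, 27 and 5. *Dnah12* had 21 UMIs, but 18 of them lay in a single nucleus of SynCre replicate 1.

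Among genes of lineage and position, *Msx1*, a roof plate homeobox gene, had 10, 2, 52 and 6 UMIs, and *Zic1* had 9, 3, 22 and 7, or 100.2 CPM against 420.01 in vascular fibroblast or pericyte nuclei. The forebrain genes *Otx1*, *Emx2* and *Six3* had 12, 10 and 17 UMIs. The hindbrain genes *Hoxa2*, *Hoxa3*, *Hoxb2* and *Hoxb3*, which mark the plexus of the fourth ventricle, and *Lmx1b* had 0 each, which allows up to 7.33 CPM.

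Among receptors, *Htr2c* stood apart. This serotonin receptor, long known from the choroid plexus, had 471, 98, 3325 and 760 UMIs, 11375 CPM against 64.0 in neuron nuclei, and was found in 66 of 71 nuclei. *Prlr*, the prolactin receptor, had 17, 14, 243 and 62 UMIs (821 CPM against 7.65 in other nuclei), and *Lepr*, the leptin receptor, had 5, 1, 30 and 13, or 119.8 CPM against 136 in vascular fibroblast or pericyte nuclei. Of 23 receptor genes, 14 had at least 20 UMIs, and 4 of these passed 10 times the other nuclei, beside 8.03% of the 4772 genes. *Insr*, *Igf1r*, *Fgfr2* and *Erbb4* stood at 1.55, 2.20, 1.91 and 1.00 times the other nuclei, and *Avpr1a* and *Adrb1* were not detected.

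Markers of other cell types are given beside their level in their own class of nuclei; those classes were chosen by these markers, or for neurons by *Slc17a7*, *Gad1* and *Gad2*, which the choroid plexus rule also limits, so the lower level in choroid plexus nuclei is a description. Neuron markers summed to 682 CPM (5164 in neuron nuclei), oligodendrocyte markers to 425 (13125), astrocyte markers to 741 (3914), microglia or macrophage markers to 288 (4748), endothelial markers to 178 (10664), and markers of vascular fibroblasts or pericytes to 44.0 (3697). Most abundant in these lists were *Syt1*, *Mbp*, *Slc1a3*, *Cx3cr1*, *Slco1a4* and *Pdgfrb*. *Flt1*, *Cldn5* and *Adgrl4* of the endothelial list, *Slc6a13*, *Lum*, *Abcc9* and *Vtn* of the vascular list and *Tmem119* of the microglia list were at 0. Some lists rested on 1 gene. *Cx3cr1* had 4, 7, 67 and 18 UMIs in 45 choroid plexus nuclei where *Csf1r* had 2 UMIs and *Tmem119* none, and *Slco1a4* had 70 where *Pecam1* had 2. The ependymal list, 95.3 CPM in all, had at most 11 UMIs for any gene. Astrocyte markers stood at 651, 197, 481 and 1428 CPM in the 4 libraries. Of the 71 nuclei, 22 held 2 or more oligodendrocyte markers and 14 held 2 or more astrocyte markers, and leaving out every nucleus with 2 or more markers of another class kept 1, 2, 22 and 5 nuclei, at a difference in share of 0.155 percentage points.

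A few nuclei stood apart, and they are named here after their values were seen. Without any *Ttr* or *Htr2c* UMI were 2 nuclei of fl/fl replicate 1 and 1 nucleus in each SynCre-labelled library, all with 3 or 4 rule genes. One of those in fl/fl replicate 1 held 18.9% of that library's choroid plexus UMIs, including 67 of the 83 *Cped1* UMIs and 42 of the 48 *Adam12* UMIs, together with 5 astrocyte and 3 vascular markers. That in SynCre replicate 1 had 5 of 6 ependymal markers, 18 *Dnah12* UMIs and 17 *Wdr49* UMIs, and that in SynCre replicate 2 had 41 of the 72 *Slc7a11* UMIs and 16 of the 29 *Gfap* UMIs. The deepest nucleus, in SynCre replicate 2, had 34609 UMIs, 32.7% of that library's choroid plexus UMIs, with all 6 rule genes, 342 *Ttr* UMIs and all 6 astrocyte markers. Leaving out these 5 nuclei kept 66 (7, 2, 46 and 11), in which astrocyte markers stood at 471 CPM and *Folr1*, *Clic6* and *Otx2* had 122, 180 and 123 UMIs. Nuclei of highest score from the doublet caller Scrublet were marked up to an assumed rate of 0.8% per 1000 barcodes. The number marked was thus set in advance, at 1246, 572, 527 and 426 nuclei per library. Among the choroid plexus nuclei 2, 2, 1 and 0 were marked, so both of those in fl/fl replicate 2 were. No barcode was shared between choroid plexus nuclei of different libraries.

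Expression under the 2 labels was compared in UMIs summed over the choroid plexus nuclei of each library. Neither fl/fl-labelled library reached the 10 nuclei set as the minimum for this test, so a fit over all 4 libraries was made instead, after the numbers were known. With edgeR's quasi-likelihood test, 0 of 1821 genes passed an adjusted p of 0.05 (percent called 0), 52 had an unadjusted p under 0.05, and DESeq2 likewise called 0 (6 at an unadjusted p under 0.05). The median log2 fold change over the 1821 genes was 0.06, and 996 lay above 0. The fl/fl side rested on 11 nuclei. On simulated counts of the same depth the test found 76.2% of genes changed 4-fold, and smaller changes were not simulated. The simulation assumed less spread between libraries than edgeR estimated here (coefficient of variation 0.316). The 76.2% therefore does not give the share that this comparison could find.

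For *Ttr*, at 9625 and 12738 against 20159 and 12064 CPM, edgeR gave a log2 fold change of 0.71 (SE 0.27, adjusted p = 0.999, unadjusted p = 0.0262), and the groups overlapped in CPM. Mean *Ttr* UMIs per choroid plexus nucleus, which are not scaled by depth, were 55.9 and 64.5 against 103 and 98.2 without overlap (exact permutation p = 0.3333, the smallest possible). Without SynCre replicate 2 the edgeR adjusted p for *Ttr* was 8.33e-09 at a log2 fold change of 1.24, with the lone SynCre-labelled library assumed to vary like the fl/fl-labelled pair, and with all 4 libraries and no filter on low counts it was 0.00232 at 1.12. In neuron nuclei of the same libraries, where 0.143% of 19618 genes were called, *Ttr* had a log2 fold change of 0.63 (SE 0.39, edgeR adjusted p = 0.554), and with the replicate number, which carries sex, as a block it was 0.73 (SE 0.14, edgeR adjusted p = 0.0236). *Enpp2* stood at 4095 and 6024 against 7461 and 6561 CPM without overlap (log2 fold change 0.66, SE 0.26, edgeR adjusted p = 0.999). *Kcnj13* ran the other way, at 651 and 494 against 278 and 227 CPM (log2 fold change −1.12, SE 0.47, edgeR adjusted p = 0.999). *Htr2c* overlapped between groups, at 9012 and 9677 against 13798 and 7185.

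Of 14 tested choroid plexus markers outside the rule, 0 were called and 11 had a fold change above 0, with a median log2 fold change of 0.57 beside 0.06 over all genes tested. Leaving out the 4 nuclei without *Ttr*, of which 2 held 18.9% and 7.96% of the choroid plexus UMIs of fl/fl replicate 1, the median was 0.35 beside 0.07, with 10 of 14 above 0; it was 0.31 with *Otx2* and *Otx2os1* counted as 1 gene and 0.87 without SynCre replicate 2. With no limit on neuron UMIs it was 1.03 beside 0.02, and with no filter on low counts 1.04 beside 0.80. No gene was called in any other list. The median was 0.32 for the 14 tested ion and water genes, 0.97 for 8 carriers, 0.67 for 10 secreted factors, 0.17 for 6 junction genes, 0.34 for 6 cilium genes, 0.15 for 11 receptors, 0.20 for 4 ER quality control genes and 0.36 for 2 one-carbon genes. Of the lineage and position genes outside the rule, *Msx1* and *Zic1* were tested, with log2 fold changes of −0.27 (SE 0.75) and −1.19 (SE 0.66), both at an edgeR adjusted p of 0.999. Genes of smallest unadjusted p higher under the SynCre label were *Gm534* (log2 fold change 2.94, SE 0.71), *Kank1*, *Wwp1*, *Ncam2*, *Hspa4*, *Gm29266*, *Pifo*, *Setd2* and *Bri3*, all at an edgeR adjusted p of 0.999. Those lower were *Galntl6*, *Kif13a*, *Cacna1a*, *Cacna2d3*, *Grik2*, *Spats2l*, *Ralgapa2*, *Myo9a*, *Fam155a* and *Luzp2*, also at 0.999. *Galntl6*, *Cacna1a* and *Grik2* are abundant in neuron nuclei, and 52 of the 95 *Galntl6* UMIs lay in 1 nucleus of fl/fl replicate 1. Among those higher, *Ncam2* stood at 284 CPM in choroid plexus and 822 in neuron nuclei, with 34 of its 116 UMIs in 1 nucleus, and *Kank1* at 259 CPM in choroid plexus, 330 in astrocyte and 360 in oligodendrocyte precursor nuclei. The part of RNA from other cells in these differences was not tested.

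The 2 SynCre-labelled libraries also differed from each other. *Htr2c* stood at 13798 CPM in replicate 1 and 7185 in replicate 2, *Ttr* at 20159 and 12064 and *Prlr* at 1008 and 586, while *Kl* ran the other way at 378 and 624. *Trpm3* (17993 and 20904) and *Enpp2* (7461 and 6561) lay closer. In the 66 nuclei left without those that stood apart, *Htr2c* was 14201 and 8677 CPM and *Kl* 389 and 705, so the order was the same. The 9 fl/fl-labelled nuclei among these 66 held 11765 CPM of *Htr2c*, between the 2 SynCre-labelled libraries, and 13068 CPM of *Ttr*, beside 20748 and 13713.

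Sel1L is the adaptor of the Hrd1 ubiquitin ligase, which draws misfolded proteins out of the endoplasmic reticulum (ER) for destruction, and the ER of a secretory epithelium is heavily used. All 20 ER quality control genes were detected in the choroid plexus nuclei, 12 had at least 20 UMIs and 4 were tested, of which none was called. Their median ratio to other nuclei was 2.11 against 1.53 for all 4772 genes, with 6 of 12 above 2, beside 35.1% of those genes, and none above 10. *Sel1l* had 8, 1, 30 and 5 UMIs (108 CPM against 116 in other nuclei) and *Syvn1*, which encodes Hrd1, had 2, 0, 9 and 2. *Hspa5*, the chaperone BiP, had 4, 0, 45 and 13 UMIs, or 76.5, 0, 187 and 123 CPM, against 21.6, 22.8, 66.2 and 49.7 in neuron nuclei. *Canx* stood at 134, 395, 270 and 199 CPM and *Dnajc3* at 230, 296, 257 and 142, with overlap between the labels in both. *Hsp90b1* had 4, 2, 56 and 8 UMIs, and *Calr* 1, 0, 27 and 2, higher in SynCre replicate 1 than in replicate 2 in both cases.

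**Figure D5:**
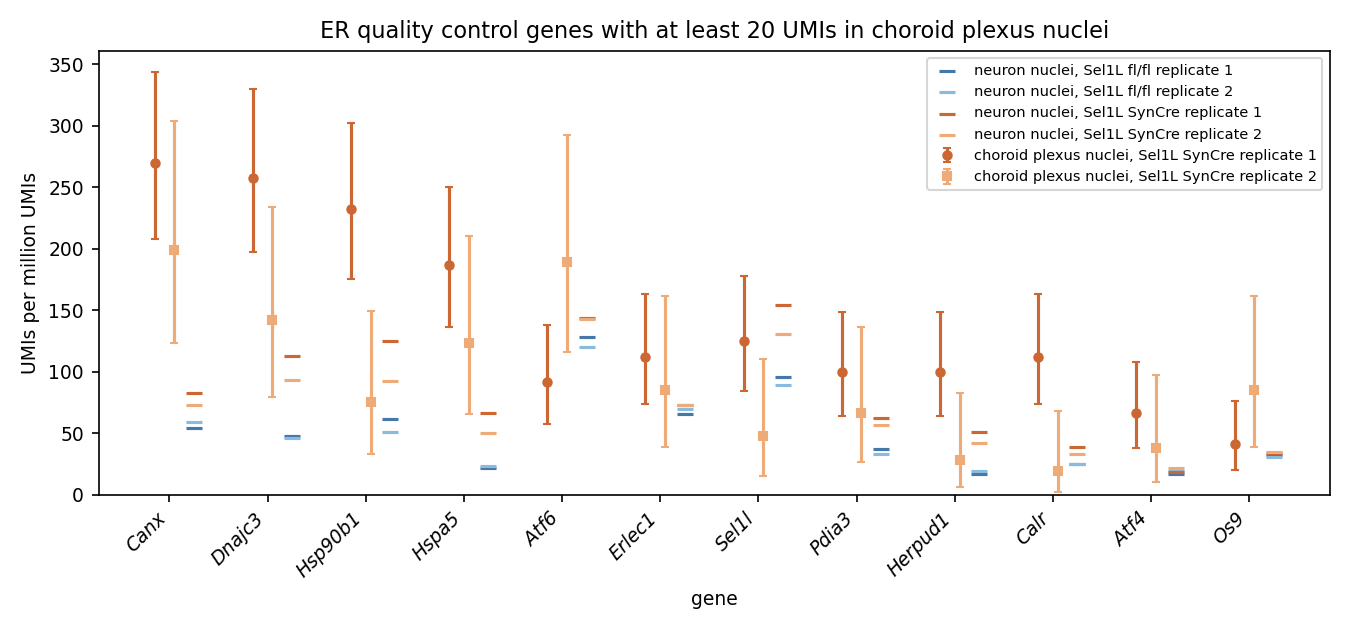
CPM of ER quality control genes with at least 20 UMIs, in choroid plexus nuclei of both SynCre-labelled libraries (points with exact 95% Poisson intervals, counting error only) and in neuron nuclei of all 4 libraries (dashes); choroid plexus nuclei of the fl/fl-labelled libraries are not drawn because they held few UMIs. *Hspa5* lies at 187 and 123 in choroid plexus nuclei and at 21.6 to 66.2 in neuron nuclei, while *Sel1l* lies at 124 and 47.3.

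Most genes of one-carbon metabolism and other targets of the stress factor *Atf4* had under 20 UMIs in these nuclei. Of 27, 5 had at least 20 UMIs, 2 were tested and none was called. Of these 5, 3 stood above 2 times the other nuclei, with a median ratio of 2.26 beside 1.53 and 35.1% over the 4772 genes. Over all 27, most with under 20 UMIs, 9 stood above 2 times and 8 under 0.5 times, and the median ratio was 1.14. The serine synthesis genes *Phgdh*, *Psat1* and *Psph* had 10, 4 and 7 UMIs, *Mthfd2* had 8, *Asns* 4, and *Trib3*, *Chac1*, *Pycr1* and *Ahcy* none. *Mat2a*, which makes the methyl donor S-adenosylmethionine, had 16, 1, 46 and 24 UMIs (log2 fold change −0.22, SE 0.54, edgeR adjusted p = 0.999). *Slc7a11*, the cystine transporter, had 9, 0, 8 and 55 UMIs, of which 10 remained in the 66 nuclei, and stood at 176 CPM over the 71 nuclei against 1943 in vascular fibroblast or pericyte nuclei.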

How the data were processed

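Nuclei from 4 mice (2 a label) were profiled with 10x Genomics 3′ v3 chemistry. The authors deposited raw UMI counts per gene and barcode for each library, made with Cell Ranger 6.1.0 on GRCm38 per the submitters' processing notes; strand and intron settings are not given in the sources used here. Of 36619 barcodes (32286 features), 36094 were kept. Doublets, which the study removed, were left in. As an alternative, nuclei of highest Scrublet score (Scanpy 1.11.5) were left out, up to an assumed rate of 0.8% per 1000 barcodes. Libraries held 74082610 to 122870443 UMIs, and p-values measure the spread between 4 mice.

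Members and gene lists were chosen with earlier results of these data known. Other classes needed at least 3 markers of exactly 1 class, and neurons 3 UMIs of *Slc17a7*, *Gad1* and *Gad2*. Levels are UMIs per 1000000 (CPM), with exact Poisson or Clopper-Pearson 95% intervals; the limit given for a count of 0 is 3 counts of the total. Summed counts were tested with edgeR 4.0.16 (TMM, filterByExpr, quasi-likelihood, Benjamini-Hochberg over all genes tested, threshold 0.05), with DESeq2 1.42.0 as an alternative, after a check on simulated counts. Named were members of the lists, the 20 genes outside the rule of highest ratio to other nuclei and, as none passed, up to 10 genes of smallest p in each direction; rule genes were left out of what was read from the test. Positions are from GENCODE vM21 (32158 feature IDs matched) and promoters from RefSeq. The planned test over libraries with at least 10 nuclei and the interaction of label and class could not be run, since no fl/fl-labelled library had 10. Alternatives were other rules, filters, thinning, a replicate block and leaving out each library. Some members of the lists are counted but not reported here by name.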

Additional observations from a re-analysis of the deposited data

Results flagged for a closer look

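*Cre* RNA, which no comparison used, was found in neuron nuclei of the library labelled *Sel1L fl/fl* replicate 1 at 4.51 CPM (379 UMIs), while the other library with that label had 0, which allows up to 0.0701 CPM. The libraries labelled *Sel1L SynCre* stood at 3.91 and 4.42. The cause was not tested. Leaving out fl/fl replicate 1, the difference in the share of choroid plexus nuclei was 0.358 percentage points. The fl/fl side is then 1 library of 2 nuclei, both marked by their Scrublet score at the assumed rate. An edgeR fit without fl/fl replicate 1 assumes that this library varies like the SynCre-labelled libraries.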

How the results depend on the processing

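The share of choroid plexus nuclei was higher under the SynCre label in all 15 alternatives. The difference moved from 0.33 to 0.707 percentage points when only nuclei with at most 1 neuron UMI were counted, by that setting's smaller denominator; the other 10 settings that kept all libraries gave 0.155 to 0.414, and leaving out a library 0.132 (without SynCre replicate 1) to 0.535. The count of 0 genes called in choroid plexus nuclei held in 13 of 19 alternatives. It was 18 without Scrublet doublets (3580 genes, fl/fl replicate 2 left with no nucleus), 18 with no filter on low counts (16056 genes) and 1 without nuclei that held 2 or more markers of another class (124 genes). Leaving out a library gave 0 to 26, with 2 without fl/fl replicate 1, 26 without fl/fl replicate 2 and 8 without SynCre replicate 2; the cause was not tested. With at least 2 rule genes, 61 of 4973 genes were called over libraries with at least 10 nuclei, and 11 of 5092 with no limit on neuron UMIs, each with 1 fl/fl-labelled library assumed to vary like the rest.

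The log2 fold change of *Ttr* in choroid plexus nuclei stayed above 0 in all 19 alternatives. It was lowest at 0.24 (SE 0.48) with at least 2 rule genes, 1.12 (edgeR adjusted p = 0.00232) with no filter, and 0.34 to 1.24 with a library left out, the highest without SynCre replicate 2. In neuron nuclei the replicate block gave 0.73 (edgeR adjusted p = 0.0236), and leaving out a library 0.12 to 1.47, the highest without fl/fl replicate 1 (edgeR adjusted p = 0.0412). The replicate block called 0 genes in choroid plexus nuclei (17 at an unadjusted p under 0.05, against 52), with a *Ttr* log2 fold change of 0.66. Same-numbered libraries share sex, and the labels give no other pairing. Deviations from the label means had a correlation of −0.0167 between same-numbered libraries. With 2 libraries a label the 2 pairs mirror each other, so this is 1 value and the second pair adds nothing. The choroid plexus nuclei of the fl/fl-labelled side held 52262 and 10127 UMIs.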

Other observations

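Glucocorticoid-responsive genes held 364 UMIs in choroid plexus nuclei, and interferon, antigen and inflammation genes held 79. Of 14 glucocorticoid-responsive genes, 6 had at least 20 UMIs and 1 was tested, and none was called. *Sgk1*, a kinase that acts on sodium channels, had 11, 3, 84 and 33 UMIs in the 4 libraries (log2 fold change 0.62, SE 0.49, edgeR adjusted p = 0.999). *Fkbp5*, a chaperone partner of the glucocorticoid receptor, stood at 0.902 times the other nuclei and *Zbtb16* at 0.308 times. *Pdk4*, a switch of fuel use, had 17 UMIs, 28.6 times the other nuclei.

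Of 16 interferon, antigen and inflammation genes, 8 had no UMI in choroid plexus nuclei, among them *Lcn2*, *Ccl2*, *Isg15* and *Ifit1*, 7 had 1 to 19, and none was tested. *Vcam1*, an adhesion molecule for leukocytes and the one gene of the list with at least 20 UMIs, had 14, 1, 30 and 6 UMIs in 28 nuclei, 41.8 times the other nuclei. Its level was 268, 98.7, 124 and 56.7 CPM, lowest in SynCre replicate 2, and 111 CPM remained in the 66 nuclei kept when those that stood apart were left out. Endothelial nuclei held 309 CPM of *Vcam1*.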
